A study of Mus musculus with 8 samples.

Results

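Genes of the integrated stress response were followed in RNA-seq libraries that are described as coming from HFHC-fed mice given tranilast and from their controls. They are the transcription factors Atf4, Ddit3, Atf3, Atf5, Cebpb and Cebpg, and the effectors Trib3, Chac1, Sesn2 and Ppp1r15a. The members were found by symbol and are 10 of the 22063 genes in the deposited table. Because they were chosen from values measured in this same contrast, their differences are given as a description, without a test. The study asked how tranilast, an anti-allergic drug, acts in a mouse model of fatty liver disease. Its 8 libraries fall into 4 labelled Control and 4 labelled Control+tranilast, all wild type and all labelled liver. The high-fat and high-cholesterol diet is named for both groups by the series design, so by that design the controls were also HFHC-fed. Per the study's methods the animals were male C57BL/6J mice and the drug was given by gavage against a vehicle, but neither the dose nor the age of the sequenced mice is tied to a library. The labels number the replicates and do not say whether each was a separate animal, so the spread behind every p-value may be technical.

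In the integrated stress response, kinases that sense unfolded protein, missing amino acids, double-stranded RNA or missing haem phosphorylate the alpha subunit of the initiation factor eIF2. General translation then slows, while the mRNAs of Atf4 and a few other factors are translated more, and ATF4 with its C/EBP partners turns on genes for amino acid supply, redox balance and, under lasting stress, cell death. In the liver the response is best known from protein-folding stress and amino acid shortage in hepatocytes, and macrophages use the same machinery. The files hold mRNA only, so eIF2 phosphorylation and ATF4 protein were not measured.

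The short element that ATF4 and C/EBP dimers bind, and other stress elements, were looked for in the RefSeq promoters of the members (GRCm38.p6, 250 bases before to 50 bases after each start). All 10 members matched, with 11 promoters in all since Atf5 has more than 1. The C/EBP-ATF response element, searched as TGATGNAA on both strands, was in the promoters of 3 members and in 3.97% of the 32851 promoters of the table. The cyclic AMP response element, TGACGTCA, was in 1 member and in 1.79% of promoters. No member matched the C/EBP palindrome TTGCGCAA, which 0.183% of promoters hold, or the ER stress response element (CCAAT and CCACG with 9 bases between), which 0.119% hold. No match overlapped that of another motif. A match is a match of letters and not a shown binding site, and the absence of one says only that these letters are not in this window. The stretches around the 4 matches are shown because they are the only ones found, with the matched bases in capitals and each stretch read 5′ to 3′ on the gene's strand.
Atf3, chr1:191183390-191183489, minus strand: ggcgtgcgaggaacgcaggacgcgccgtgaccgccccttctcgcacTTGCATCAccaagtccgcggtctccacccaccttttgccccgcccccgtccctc
Chac1, chr2:119351003-119351102, plus strand: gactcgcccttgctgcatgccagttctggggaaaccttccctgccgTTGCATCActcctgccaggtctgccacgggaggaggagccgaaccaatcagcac
Trib3, chr2:152344028-152344057, minus strand: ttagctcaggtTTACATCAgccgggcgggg
Ppp1r15a, chr7:45526269-45526368, minus strand: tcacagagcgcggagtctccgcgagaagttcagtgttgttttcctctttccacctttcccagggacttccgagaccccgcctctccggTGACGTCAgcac
In Atf3, Chac1 and Trib3 the capitals are the element read on the other strand. The match in Atf3 lay 110 bases before the RefSeq start, that in Chac1 193 bases before it, and that in Ppp1r15a 12 bases before it. The Atf3 window, 191183284 to 191183583, lay inside the GENCODE span of the gene. On the minus strand that span begins at 191218039, and the bases around that position were not searched. In Trib3 the match lay 14 bases after the RefSeq start. By GENCODE, where Trib3 begins at 152344032 on the minus strand, the same match (152344039 to 152344046) lay before the gene.

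The libraries carried almost no transcripts of hepatocytes, the main cell of the labelled tissue. Of 10 hepatocyte markers, Serpina1c, Cps1, Hnf4a and Tat had no count in any library, and albumin had between 0 and 2 counts. Ttr had between 0 and 17 counts, and 1 of the 10 markers had enough counts to be tested. The summed list took at most 0.000123% of counts in the control and 0.000191% in the tranilast libraries. Macrophage markers took 0.906% to 0.96% and 0.884% to 0.943%, with Lyz2 at 51267 to 68975 counts. Of the 14 macrophage markers, 7 had enough counts to be tested, and Cd163 had no count in any library. Clec4f, Vsig4 and Timd4, which define resident Kupffer cells, were also at 0 counts throughout. The values below are therefore described as values of these libraries and not of hepatocytes. These marker counts are not those of whole liver, so the tissue label is in doubt and the values are not read as those of liver. The diet and animals are given only as the series and the methods state them. Of the other marker lists, that of neutrophils summed to 4.29 to 5.69 CPM in control and 6.97 to 9.21 CPM in tranilast libraries, and that of T and NK cells to 2.28 to 2.86 and 0.83 to 1.84 CPM. B cell markers summed to 55.3 to 61.9 and 64.3 to 80.6 CPM, and cholangiocyte markers, a list that includes Spp1, to 3870 to 4310 and 3160 to 3550 CPM. Endothelial markers lay under 0.75 CPM and those of stellate cells and fibroblasts under 2.6 CPM in every library. The part of these shifts in the results was not tested. In bulk RNA, fewer cells of a type and less RNA per cell cannot be told apart.

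All 10 members had a higher mean in the tranilast libraries, and in 9 of them every tranilast library lay above every control library. The same held for 24.5% of all 10770 genes that had enough counts to be tested. The median log2 fold change of the members was 0.89, against 0.01 over all tested genes, with 0.62 for the 6 transcription factors and 1.58 for the 4 effectors. Sesn2, Trib3, Ddit3 and Chac1 differed most and Ppp1r15a least. Over all tested genes, 28.2% were called higher with tranilast and 28.8% lower (adjusted p under 0.05, edgeR quasi-likelihood test), so a difference in this contrast was common, and nothing is read from these shares for the members. All values below are CPM (reads scaled to the total counts of the library) after trimmed mean of M values (TMM) scaling, unless FPKM is named, and log2 fold changes are tranilast against control with the standard error (SE) of the edgeR fit.

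**Figure D1:**
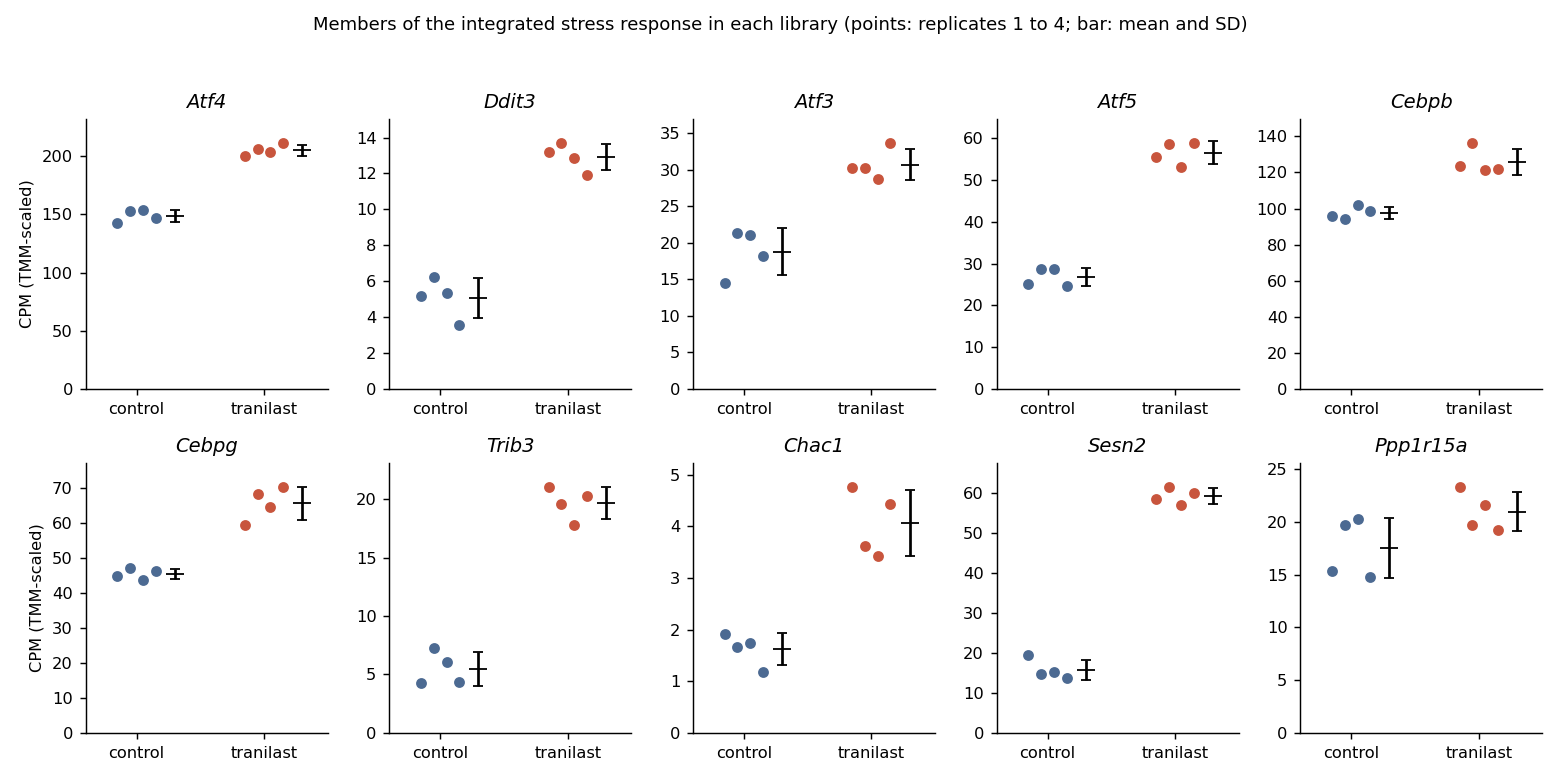
CPM (TMM-scaled, linear axes from 0) of the 10 members in each library, with points for replicates 1 to 4 of control (blue) and tranilast (red) and a bar for the mean and SD. Control and tranilast points are apart in 9 panels and overlap in that of Ppp1r15a.

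Among the transcription factors, Atf4 was the most abundant and among the least changed. Atf4, the bZIP factor at the centre of the response (ENSMUSG00000042406, GRCm38 chr15:80255184-80257541), was at 142, 152, 153 and 147 CPM in control replicates 1 to 4 and at 199.95, 206, 203 and 211 CPM in tranilast replicates 1 to 4. The groups did not overlap and each was narrow, with means of 149 ± 5.16 and 205 ± 4.66 CPM (SD, n = 4). The log2 fold change was 0.46 (SE 0.03), a 1.38-fold difference.

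Ddit3, which encodes the pro-apoptotic factor CHOP (chr10:127290774-127296288), was at 5.19, 6.25, 5.35 and 3.56 CPM in controls and at 13.2, 13.7, 12.9 and 11.9 CPM with tranilast. Every tranilast library was above every control, and control replicate 4 was the lowest of all 8. Its log2 fold change was 1.34 (SE 0.14), the largest among the factors, from 51 to 90 counts in controls and 161 to 189 with tranilast. A second row with the symbol Ddit3 (ENSMUSG00000116429) had no count in any library and was left out. Ddit3 also overlaps the methionyl-tRNA synthetase gene Mars by 68 bases on the other strand, and Mars had 1322 to 1952 counts. Whether counting used strand is not given in the sources used here, so reads in such overlaps may belong to either gene.

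Atf3, a stress-induced factor that acts mostly as a repressor (chr1:191170296-191218039), was at 14.4, 21.4, 21.1 and 18.1 CPM in controls and at 30.2, 30.3, 28.7 and 33.6 CPM with tranilast. The groups were apart, with control replicate 1 the lowest and tranilast replicate 4 the highest. The log2 fold change was 0.71 (SE 0.10).

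Atf5, an ATF4 relative tied to mitochondrial stress whose mRNA is also held back by upstream reading frames (chr7:44812256-44816658), was at 25.2, 28.8, 28.6 and 24.6 CPM in controls and at 55.6, 58.7, 53.2 and 58.8 CPM with tranilast. Its lowest tranilast value was well clear of its highest control value, and the log2 fold change was 1.08 (SE 0.06), a 2.11-fold difference. Atf5 shares 571 bases with Nup62, which had 1829 to 2589 counts, and 272 bases with Il4i1, both on the other strand.

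The C/EBP factors among the members pair with ATF4 on its target genes. Cebpb (chr2:167688915-167690418) was at 95.7, 94.1, 102 and 98.5 CPM in controls and at 124, 136, 121 and 122 CPM with tranilast, with a log2 fold change of 0.37 (SE 0.04). Cebpg (chr7:35046422-35056573) was at 44.8, 47.0, 43.8 and 46.1 CPM in controls and at 59.4, 68.2, 64.4 and 70.2 CPM with tranilast, with a log2 fold change of 0.53 (SE 0.06). In neither gene did the groups overlap. Cebpb shares 908 bases with Tmem189 on the other strand, which had 1360 to 1669 counts. Cebpg shares 1140 bases with Gm44836 and 617 with Gm45094 on its own strand, for which the deposited data hold no counts.

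Among the effectors, Sesn2 and Trib3 held the largest differences of all members, and Ppp1r15a held the smallest. Trib3, a pseudokinase induced by ATF4 and CHOP that binds AKT (chr2:152337422-152344032), was at 4.27, 7.29, 6.08 and 4.33 CPM in controls and at 21.0, 19.6, 17.8 and 20.3 CPM with tranilast. The lowest tranilast library was above the highest control library, and the log2 fold change was 1.84 (SE 0.14), a 3.58-fold difference. Control replicates 2 and 3 were the high ones among the controls, whose spread was 26.7% of the mean against 6.98% in the tranilast group.

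Sesn2, a sestrin that senses leucine and restrains mTORC1 (chr4:132492032-132510501), was at 19.5, 14.6, 15.1 and 13.7 CPM in controls and at 58.4, 61.4, 56.9 and 59.8 CPM with tranilast. Control replicate 1 stood above the other controls, and all tranilast values lay in a narrow band above it. The log2 fold change of 1.91 (SE 0.08), a 3.76-fold difference, placed Sesn2 above 99.7% of tested genes. It and Trib3 differed from each other by less than 1 SE of Trib3. The span of Sesn2 shares 6089 bases with Gm12981 on the same strand, for which the deposited data hold no count.

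Chac1, an enzyme that degrades glutathione (chr2:119351229-119354381), was at 1.92, 1.67, 1.74 and 1.19 CPM in controls and at 4.76, 3.62, 3.43 and 4.44 CPM with tranilast. The groups were apart and the log2 fold change was 1.32 (SE 0.22), the widest error of the members. These values rest on 17 to 27 counts in controls and 43 to 68 with tranilast, so their precision is set by few reads. On the log2(FPKM + 1) scale, where the pseudocount is close to its level, the difference was 0.87.

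Ppp1r15a encodes GADD34, which brings protein phosphatase 1 to eIF2alpha and so ends the response (chr7:45522916-45526268). It was at 15.4, 19.7, 20.3 and 14.8 CPM in controls and at 23.3, 19.7, 21.6 and 19.2 CPM with tranilast. It was the only member whose groups overlapped, since control replicates 2 and 3 reached the level of tranilast replicates 2 and 4. The log2 fold change was 0.26 (SE 0.11). With upper-quartile factors, with library size alone and in the deposited FPKM the ranges came apart, the highest control against the lowest tranilast value being 19.7 against 19.9 CPM, 19.4 against 20.1 CPM and 8.23 against 8.56 FPKM.

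**Figure D2:**
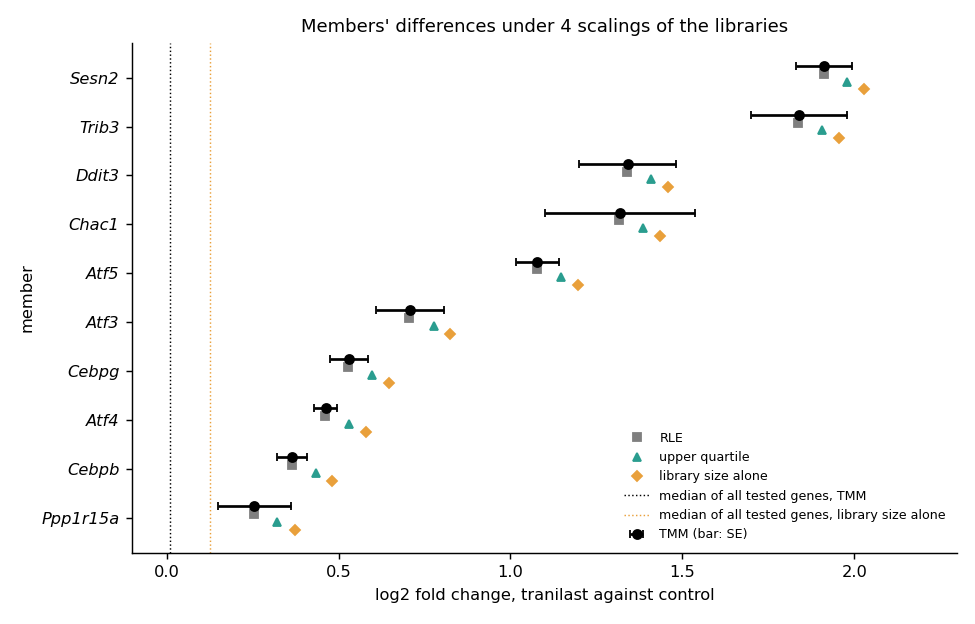
Log2 fold change (tranilast against control, x axis) of each member (y axis) under TMM (black, bar for SE), RLE, upper-quartile and library-size scaling, with dotted lines at the median of all tested genes under TMM and under library size alone. The members kept their order and stayed above the dotted lines under each scaling, with Sesn2 highest and Ppp1r15a lowest.

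The size of the differences depended modestly on how libraries were scaled. TMM factors were 0.956 to 0.965 in control and 1.037 to 1.045 in tranilast libraries, so library size alone raised the median of all tested genes by 0.12 on the log2 scale and the member median to 1.01. Relative to that shift the members kept the differences given above. The share of higher genes among all called genes was 49.5% under TMM, 62.6% with upper-quartile factors and 70.9% with library size alone.

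The members also shared annotations. They were chosen as genes of this response, so shared terms follow from that choice and are given only as a description. All 6 factors carry a bZIP transcription factor annotation in the deposited table. Of the 87 genes in the table annotated to the response to endoplasmic reticulum stress, 5 were members (Atf4, Cebpb, Ddit3, Ppp1r15a and Trib3). Of 47 annotated to the cellular response to amino acid starvation, 3 were members (Atf3, Atf4 and Sesn2).

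Levels of different genes were compared per transcript length, as the deposited FPKM. In controls the order was Atf4 (83.0 ± 2.40 FPKM), Cebpb (62.3 ± 2.14), Atf5 (15.4 ± 1.94), Cebpg (14.4 ± 0.516), Atf3 (9.08 ± 1.54), Ppp1r15a (7.18 ± 1.12), Ddit3 (5.58 ± 1.31), Sesn2 (4.34 ± 0.726), Trib3 (2.60 ± 0.685) and Chac1 (0.955 ± 0.184), each SD over 4 libraries. Atf5 and Cebpg did not differ beyond their spread, nor did the neighbours from Atf3 down to Sesn2. In controls Atf4 lay above 91.7% of tested genes by FPKM and Cebpb above 88.1%, while Chac1 lay above 7.38%.

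With tranilast the order was Atf4 (124 ± 3.57 FPKM), Cebpb (87.0 ± 5.03), Atf5 (34.7 ± 3.12), Cebpg (21.2 ± 3.15), Sesn2 (17.7 ± 0.629), Atf3 (16.1 ± 1.13), Ddit3 (15.8 ± 1.11), Trib3 (10.1 ± 0.704), Ppp1r15a (9.31 ± 0.803) and Chac1 (2.58 ± 0.402). Sesn2 moved from rank 8 to rank 5 and Ppp1r15a from rank 6 to rank 9. The neighbours from Cebpg down to Ddit3, and Trib3 and Ppp1r15a, did not differ beyond their spread. The transcript length implied by FPKM and CPM without TMM varied most between libraries for Cebpg (2.87 to 3.90 kb) and Atf5 (1.54 to 1.82 kb). Ddit3 came next (0.827 to 0.890 kb). The FPKM of these genes therefore also move with the authors' estimate of length. Such variation was common, since the highest length was over 1.1 times the lowest in 33.9% of all tested genes.

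**Figure D3:**
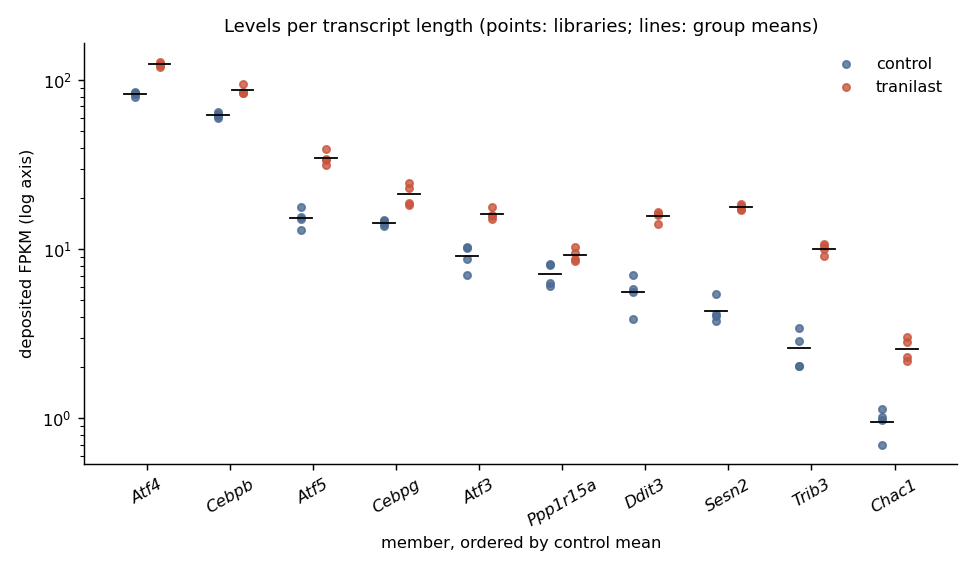
Deposited FPKM (log axis) of each member, ordered by control mean, with points for the 4 control (blue) and 4 tranilast (red) libraries and a line for each group mean. Levels run from Atf4 (83.0 and 124 FPKM) to Chac1 (0.955 and 2.58 FPKM), and Sesn2 passes Ppp1r15a in the tranilast group.

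Other genes of the pathway, which the members do not include, were tested with the edgeR quasi-likelihood test, adjusted over all 10770 tested genes. The lists, here and below, were chosen with earlier results of these data known. Their counts and p-values are therefore a description and not separate support for a response of the pathway. Of 98 tested genes in the lists from the kinases to the targets, 50 were higher and 24 lower with tranilast, against 28.2% and 28.8% of all tested genes, and their median log2 fold change was 0.17 against 0.01. With library size alone the counts were 64 higher and 14 lower, and those of all 10770 tested genes were 4613 higher and 1893 lower. The all-gene counts were 3882 higher and 2321 lower with upper-quartile factors. They were 3958 and 1660 with limma on log2(FPKM + 1), and 3959 and 1663 on log2(FPKM + 0.1). Counts of single lists under these settings below are to be read beside them. Of the 56 tested ATF4 and CHOP target genes among the 98, 37 rose and 8 fell under TMM. Only 3 of the 98 passed the limit of 1.5 on the log2 scale used in the study's methods (Bbc3, Sqstm1 and Slc1a4), which 1.11% of all tested genes passed.

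**Figure D4:**
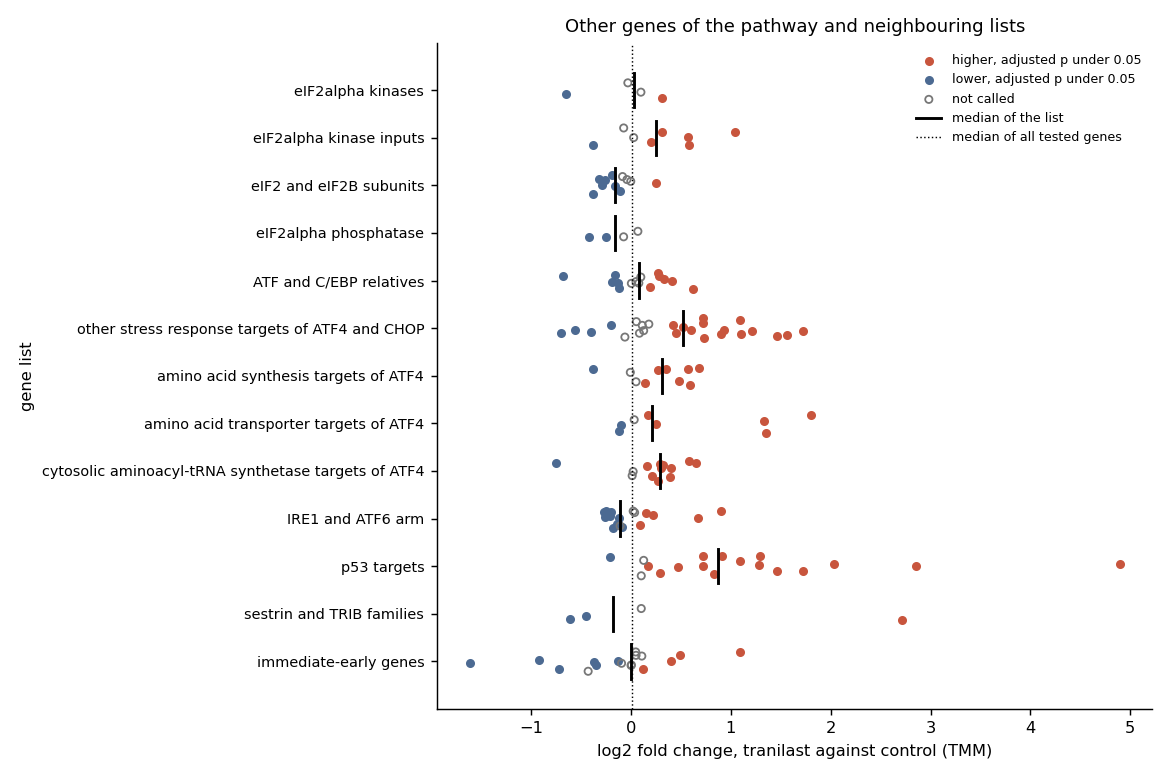
Log2 fold change (tranilast against control, TMM, x axis) of each tested gene in 13 lists (y axis), coloured by whether it was higher (red), lower (blue) or not called (open), with a bar for each list's median. The target lists lie mostly right of 0, the eIF2 and eIF2B subunits mostly left of it, and the p53 targets reach furthest right.

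Upstream of eIF2, the 4 kinases did not move together. Eif2ak3, which encodes the ER stress sensor PERK, rose from 33.3 ± 1.63 to 41.2 ± 2.95 CPM (SD, n = 4; log2 fold change 0.31, SE 0.06, adjusted p = 0.00035), and Eif2ak2, the double-stranded RNA sensor PKR, fell from 221 ± 36.1 to 141 ± 27.5 CPM (log2 fold change -0.65, SE 0.11, adjusted p = 8e-05). Eif2ak4, the amino acid sensor GCN2, had a log2 fold change of 0.10 (adjusted p = 0.089) and Eif2ak1, the haem-regulated kinase, one of -0.03 (adjusted p = 0.63). Eif2ak4 passed as higher with library size alone (0.22, adjusted p = 0.0011), with upper-quartile factors (0.17, adjusted p = 0.0075), with the limma fits of log2(FPKM + 1) and log2(FPKM + 0.1) (adjusted p = 0.015 and 0.014) and without control replicate 1 (0.13, adjusted p = 0.038). Of 8 genes that feed or restrain these kinases, 5 rose and 1 fell. Impact, an inhibitor of GCN2, rose from 38.9 ± 1.5 to 80.2 ± 5.61 CPM (log2 fold change 1.04, adjusted p = 1.9e-11). Prkra, the activator of PKR, rose (0.58, adjusted p = 1.7e-05), and Prkrip1, which encodes a PKR-interacting protein, fell by 0.38 on the log2 scale (adjusted p = 0.00092). Dele1, which relays mitochondrial stress, rose (0.20, adjusted p = 0.042), a call lost without control replicate 1, 2 or 3 or tranilast replicate 1, 2 or 4 (adjusted p = 0.057 to 0.15).

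Most called genes of the initiation factors fell. Of 11 tested subunits of eIF2, eIF2B and related factors, 7 fell and 1 rose (median log2 fold change -0.16). With library size alone 4 fell and 1 rose (median -0.05), and either FPKM fit gave the same counts of 4 and 1. Eif2s1, the phosphorylated alpha subunit itself, fell from 261 ± 8.07 to 208 ± 6.69 CPM (log2 fold change -0.32, adjusted p = 2e-07). The largest drop was that of Eif2b1 (-0.38, adjusted p = 4e-06), and Eif2d was the gene that rose (0.25, adjusted p = 0.00016). Eif2s2 fell by 0.11 (adjusted p = 0.034), a call not kept with upper-quartile factors, library size alone or either FPKM fit, or without control replicate 2 or tranilast replicate 1, 2 or 3 (adjusted p = 0.057 to 0.13 with those libraries left out). Of the 4 other phosphatase genes, the catalytic subunits Ppp1cc (-0.42, adjusted p = 4.9e-09) and Ppp1ca (-0.25, adjusted p = 5.9e-06) fell, while Ppp1cb (-0.07, adjusted p = 0.084) and Ppp1r15b, the constitutive partner of Ppp1r15a (0.07, adjusted p = 0.17), did not pass. Ppp1r15b passed as higher with library size alone (0.19, adjusted p = 0.00098), upper-quartile factors (adjusted p = 0.013) and either FPKM fit (adjusted p = 0.012). Ppp1cb passed as lower in either FPKM fit (-0.19 and -0.20, adjusted p = 0.029) and without control replicate 3 (adjusted p = 0.04), and had a log2 fold change of 0.04 with library size alone.

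Relatives of the member factors were mixed, with 6 of 15 higher and 5 lower, with 9 higher and 3 lower with upper-quartile factors, 10 higher and 1 lower with library size alone, and 7 higher and 1 lower in either FPKM fit. Cebpd rose from 20.3 ± 1.42 to 31.3 ± 3.03 CPM (log2 fold change 0.63, adjusted p = 2.7e-06), and the AP-1 repressor Jdp2 rose (0.41, adjusted p = 2.1e-05). Cebpe, a granulocyte factor, fell (-0.68, adjusted p = 0.0039). Atf6, the sensor of another arm of the unfolded protein response, fell (-0.19, adjusted p = 8.4e-05) and did not pass with library size alone or in either FPKM fit.

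Among the other stress response targets of ATF4 and CHOP, 15 of 25 rose and 4 fell (median log2 fold change 0.52). Bbc3, the pro-apoptotic BH3-only protein PUMA, rose from 12.5 ± 1.11 to 41.0 ± 3.34 CPM (log2 fold change 1.72, SE 0.08, adjusted p = 4.4e-12). Sqstm1, the autophagy receptor p62, rose from 261 ± 6.70 to 771 ± 34.4 CPM (log2 fold change 1.56, SE 0.03, adjusted p = 9.9e-17). The genes that fell most were Stc2, a secreted glycoprotein (-0.70, adjusted p = 2.5e-09), and Ero1a, the ER oxidase (-0.56, adjusted p = 4.4e-11). Fgf21 had no count in any library, and Gdf15 had at most 12 counts and was not tested.

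Most called genes of amino acid supply rose. Of 10 tested synthesis genes 7 rose and 1 fell, with a median of 0.31. Asns, asparagine synthetase, rose from 105 ± 1.70 to 159 ± 11 CPM (log2 fold change 0.60, adjusted p = 2.5e-09), and the mitochondrial folate enzyme Aldh1l2 rose by 0.69 (adjusted p = 1.7e-10). Phgdh, which opens serine synthesis, rose by 0.14 (adjusted p = 0.00087), and Mthfd1l fell by 0.38 (adjusted p = 1.6e-08). Of 8 tested transporters 5 rose and 2 fell, with a median of 0.21, and 6 rose and 0 fell with library size alone. The neutral amino acid transporter Slc1a4 rose from 3.96 ± 1.07 to 13.8 ± 2.21 CPM (log2 fold change 1.80, adjusted p = 4.5e-08) and the glycine transporter Slc6a9 from 8.42 ± 0.907 to 21.5 ± 1.76 CPM (1.35, adjusted p = 2.6e-09). Slc1a5 (-0.12, adjusted p = 0.0012) and Slc38a2 (-0.10, adjusted p = 0.0023) fell under TMM, neither passed with upper-quartile factors, library size alone or either FPKM fit, and Slc38a2 turned to 0.02 with library size alone and in the FPKM fits.

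Of 13 cytosolic aminoacyl-tRNA synthetases, which charge tRNAs, 10 rose and 1 fell, with a median of 0.29. The synthetase for cysteine, Cars, rose from 41.4 ± 1.85 to 64.9 ± 5.60 CPM (log2 fold change 0.65, adjusted p = 4.6e-08), and that for serine, Sars, from 222 ± 5.05 to 332 ± 6.08 CPM (0.58, adjusted p = 1e-11). Eprs rose by 0.16 (adjusted p = 8e-05). Vars, for valine, fell from 448 ± 13.0 to 266 ± 6.04 CPM (-0.75, adjusted p = 2.9e-13).

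The IRE1 and ATF6 arm of the unfolded protein response, which controls ER chaperones, moved in the other direction for most of its called genes. Of 18 tested genes 10 fell and 5 rose (median log2 fold change -0.11). With upper-quartile factors the counts were 7 and 7, and with library size alone 6 fell and 7 rose and the median turned to 0.003. In either FPKM fit 4 fell and 7 rose. Dnajb9, an ER co-chaperone (0.90, adjusted p = 2.3e-08), and Ern1, which encodes IRE1 (0.67, adjusted p = 3.1e-08), rose. Creld2 (-0.27, adjusted p = 8.2e-05) and the chaperone Hsp90b1, which fell from 1691 ± 39.4 to 1414 ± 32.4 CPM (-0.26, adjusted p = 2.6e-08), had the largest drops.

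Several members and targets also answer to p53, so a list of p53 targets was set beside them. It shares Bbc3, Gdf15, Pmaip1 and Tnfrsf10b with the target lists above. Of 18 tested genes 15 rose and 1 fell and the median log2 fold change was 0.88. Trp53inp1, a stress protein tied to p53 and autophagy, rose from 2.44 ± 0.344 to 72.9 ± 5.66 CPM (log2 fold change 4.90, SE 0.10, adjusted p = 7.8e-17), and Phlda3, a repressor of AKT, from 4.02 ± 0.739 to 29.0 ± 2.10 CPM (2.85, SE 0.11, adjusted p = 4e-13). Bax rose by 0.17 (adjusted p = 0.002), and Tigar fell by 0.21 (adjusted p = 0.017) and did not pass with upper-quartile factors, with library size alone, in either FPKM fit or without tranilast replicate 4 (adjusted p = 0.057).

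Paralogues of the effectors did not follow them as a group. Of 4 tested relatives of Sesn2, Trib3 and Chac1, 1 rose and 2 fell. Trib1 fell from 19.0 ± 1.25 to 12.5 ± 1.37 CPM (log2 fold change -0.61, adjusted p = 3e-05) and Chac2 from 5.44 ± 1.44 to 3.96 ± 0.272 CPM (-0.46, adjusted p = 0.044), a call not kept with upper-quartile factors or library size alone (adjusted p = 0.083 and 0.12), in either FPKM fit (adjusted p = 0.2), or with limma-voom or the replicate block (adjusted p = 0.071 and 0.053). It was also lost without control replicate 2 or 4 or any of the tranilast replicates (adjusted p = 0.059 to 0.22). Sesn3, named after its values were seen and with under 50 counts on average, was the relative that rose, with a log2 fold change of 2.71. Sesn1, also on the list of p53 targets, did not pass under TMM, and with library size alone 2 relatives were higher and 1 lower. Immediate-early genes, which respond to handling and to growth signals, had 4 higher and 6 lower of 17 tested, and a median of 0.00. Btg2, also on the list of p53 targets, rose by 1.09 (adjusted p = 5.3e-11) and Nr4a1 by 0.50 (adjusted p = 0.0067). Egr3 (-0.92, adjusted p = 1.3e-06) and Ier3 (-0.72, adjusted p = 5.4e-10) fell. The split of these genes was 6 higher and 5 lower with upper-quartile factors and 7 higher and 4 lower with library size alone.

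The genes most like a member across the 8 libraries were found by the root mean square difference of log2 CPM, taken from each gene's own control mean, over 9756 genes with at least 50 counts on average. Nearest to Atf4 were Abcb1b (0.032), Man2b1 (0.033) and Litaf (0.036). Nearest to Sesn2 were Klhl24 (0.155), Tbc1d2 (0.168) and Mxd4 (0.187), and nearest to Ppp1r15a were Fam241a (0.063), Kctd11 (0.075) and Pheta1 (0.092).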

How the data were processed

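RNA-seq was analysed for 4 control and 4 tranilast libraries. The authors deposited an estimated count, not always whole, and an FPKM value per gene; FPKM had been normalized for length and depth by the authors. The methods name poly-A libraries, a HiSeq X-ten where the labels name a NovaSeq, and limma with a log2 limit of 1.5. The aligner, counter, strand setting and genome build are not given in the sources used here. Totals were 14585153 to 15618787 counts in control and 12053036 to 14679386 in tranilast libraries, where 3 counts are 0.192 to 0.249 CPM. Within-group pairs of libraries differed beyond counting noise (chi-square per degree of freedom 2.52 to 5.34), so none was treated as a duplicate deposit, which does not show that they are separate animals; the common coefficient of variation was 5.09%.

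Estimated counts were rounded, filtered with edgeR's filterByExpr defaults (10770 of 22063 genes) and tested in edgeR 4.0.16 (R 4.3.3) with TMM, glmQLFit and glmQLFTest, with Benjamini-Hochberg adjustment over all tested genes and a call at adjusted p under 0.05. The methods' limma was an alternative (limma 3.58.1), as was DESeq2 1.42.0, other scalings and filters, FPKM with pseudocounts of 1 and 0.1, a replicate block and each library left out. The code was tested on simulated counts. Named from each list were the 2 highest and 2 lowest called genes with a mean count of at least 50, plus all kinases and phosphatase genes. Genes like Atf4 and like the members with the highest and lowest difference were the 3 nearest. Positions are from GENCODE M21 (GRCm38), matched on gene ID, and promoters from RefSeq (GRCm38.p6). The members and lists were chosen with earlier results of these data known.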

Additional observations from a re-analysis of the deposited data

Results flagged for a closer look

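In 120 groups of 4 libraries, formed by the members and the named genes of the lists, 3 had 1 library that stood apart from the other 3 beyond Dixon's 95% limit, where chance gives about 1 in 20 groups. Cebpb stood at 136 CPM in tranilast replicate 2, against 121 to 124 CPM in the other tranilast libraries. Ero1a stood at 234 CPM in tranilast replicate 4, against 224 to 225 CPM. Phgdh stood at 343 CPM in control replicate 4, against 321 to 324 CPM. No library recurred among them.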

How the results depend on the processing

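Every member stayed higher with tranilast under each alternative run. The member median of 0.89 was 1.01 with library size alone and 1.002 with log2(FPKM + 0.1). Chac1 went from 1.32 to 0.87 with log2(FPKM + 1). Leaving out 1 library at a time gave medians from 0.82 to 0.94. Library size alone gave 4613 genes higher and 1893 lower and 14 lower in the pathway lists. Genes called lower numbered 1660 and 1663 with limma on log2(FPKM + 1) and log2(FPKM + 0.1), with 15 lower in the pathway lists in each. Adding the limit of 1.5 on the log2 fold change left 3 pathway genes. In the promoter window of 100 bases before the start and those after it, the C/EBP-ATF element was in 1 member. Signs that turned were those of Eif2ak1 (0.037 with upper-quartile factors, 0.086 with library size alone, 0.078 and 0.082 with log2(FPKM + 1) and log2(FPKM + 0.1), and -0.059 to 0.0021 with a library left out), Eif2s2 (0.0068 with library size alone, 0.012 and 0.012 with the FPKM fits), Ppp1cb (0.043 with library size alone) and Slc38a2 (0.017 with library size alone and with each FPKM fit). The cause was not tested. Replicate numbers did not pair the libraries (correlations of -0.06 to 0.10 between same-numbered deviations). With the replicate block 6009 genes were called against 6143, and 49 pathway genes rose and 24 fell; among the named genes only the call of Chac2 changed. Few counts limit Chac1 and Ddit3 most.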

Other observations

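In the control group, replicates 2 and 3 both lay above replicates 1 and 4 in 6 of the 10 members (Atf4, Ddit3, Atf3, Atf5, Trib3 and Ppp1r15a), an order also shown by 17.9% of all tested genes and chosen after the values were seen.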
